A study of Danio rerio with 7 samples.

Results

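The keratinocytes described here are 253 cells out of the 3968 in a single-cell data set of zebrafish melanoma. They were taken from the cells that the deposited annotation assigned to the tumor microenvironment (TME), which holds whatever was not called melanoma. A TME cell was counted as a keratinocyte when it had at least 2000 raw unique molecular identifiers (UMIs, each marking a captured transcript) and at least 20 corrected counts of *krt5*, an epidermal keratin. Of the 965 TME cells with that depth, 253 passed (26.2%, exact Clopper-Pearson 95% interval 23.5 to 29.1, counting error only), and the other 712 are called the other TME cells. The remaining 325 of the 1290 TME cells were shallower and were not used. The keratinocytes were thus chosen by their *krt5* values, so its level and everything that follows from it is given as a description.

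Keratinocytes make up the epidermis, the outermost tissue of fish skin. Basal cells sit on the basement membrane through hemidesmosomes and divide, intermediate cells lie above them, and superficial cells face the water with tight junctions and actin ridges on their outer face. Pairs of keratin proteins form filaments that desmosomes connect from cell to cell, and the transcription factor p63 maintains the basal layer. In skin melanoma these cells are the neighbors of the pigment cells from which the tumor starts.

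All tumors were made by Transgene Electroporation in Adult Zebrafish (TEAZ), in fish of 3 to 6 months of age with the genotype casper (mitfa-/-;mpv17-/-);mitfa:BRAF V600E;p53-/-, in which the pigment cell promoter *mitfa* drives the oncogene. Skin was electroporated with MinicoopR-tdT, which carries tdTomato, with *mitfa*:Cas9, with guides against *ptena* and *ptenb*, and with Tol2, and every group shares these alleles and agents. For the single cells, tumor and adjacent tissue of 6 fish (3 male and 3 female) was collected 3 months after TEAZ and pooled into 1 library, so no difference between its cells has a replicate and no test over cells was run. The labels give about 5900 cells loaded, and the deposited table holds 3968. For the bulk libraries, tdTomato+ cells were sorted from tumors that had received a further guide, either non-targeting (sgNT, labelled WT, 3 libraries) or against *dgat1a* (sgDGAT1a, labelled DGAT1a knockout, 3 libraries). These sorted cells are labelled melanoma, and a TEAZ tumor is a mosaic in which not every cell takes up every plasmid.

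The single-cell values, called corrected counts, are UMI counts after the authors' normalization had brought all cells to a similar total. The correction can add counts to cells with few raw UMIs, which is why the depth limit was kept in all classes. The keratinocytes had a median of 9683 raw UMIs (2061 to 120384) and 1945 genes, the other TME cells 6668 UMIs, and the 2502 melanoma cells of the same depth limit 10514.5 UMIs. The keratinocyte at the upper end was the deepest cell of the whole library, and the next, a melanocytic cell, had 93291. The median mitochondrial share of the keratinocytes was 1.399%, and 5 of them exceeded 10%.

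The number of keratinocytes moved little with the *krt5* limit. Limits of 5, 10 and 15 gave 277, 270 and 259 cells, and limits of 25, 30, 40 and 50 gave 252, 241, 229 and 213. The lowest *krt5* values inside the limit were 24, 25, 25, 26 and 27 corrected counts, and the highest outside were 19, 19, 18, 18 and 18, so no cell lay between 20 and 23. Without the depth limit 280 TME cells passed, and with at least 5000 raw UMIs 201 of 669 (30.04%). None of the 2502 melanoma cells reached 20, 1 reached 10, and 4 reached 5.

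The 24 TME cells with 5 to 19 corrected counts of *krt5* carried other keratinocyte genes as well. They averaged 22.7 corrected counts per cell of *epcam*, an epithelial adhesion molecule, against 21.9 in the keratinocytes and 0.0341 in the 616 TME cells with *krt5* at 0. Their *krt91* level, at 14.5, was far below the 135 of the keratinocytes, and their median depth was 3292.5 raw UMIs. Among the 17 of them with at least 5 *epcam* counts, the mucin *muc5.2* averaged 49.6 and the claudin *cldne* 15.7, against 7.84 and 2.79 in the 220 keratinocytes with as much *epcam*. No TME cell with *krt5* at 0 had 5 *epcam* counts. The limit thus left out a small number of *epcam*-positive cells with more mucin on average. Only 9 of all 712 other TME cells had any *muc5.2*, so that mean need not describe each of the 17. The 24 cells are part of the other TME cells and raised some epithelial means of that class. *epcam* averaged 0.853 and *cldni* 0.742 over all 712, against 0.0341 and 0.0601 where *krt5* was at 0. The ratios of *epcam* and *cldni* to the other TME cells are smaller for it. *krt91* changed little, at 3.00 and 2.72.

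Other keratins drew the border elsewhere. At least 20 counts of *krt91*, an epidermal keratin of fish, gave 253 TME cells, of which 234 were the same cells. Of the 19 others, 11 had no *krt5* and no *epcam*, and these averaged 16.6 of the collagen gene *col1a1a* and 47.9 of the simple-epithelium keratin *krt8*. At least 20 counts of *krt4*, a keratin of superficial layers, gave only 57 TME cells, of which 37 were keratinocytes by *krt5*. A limit of 5 on *krt91* gave 319 cells and held 249 of the 253.

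**Figure D1:**
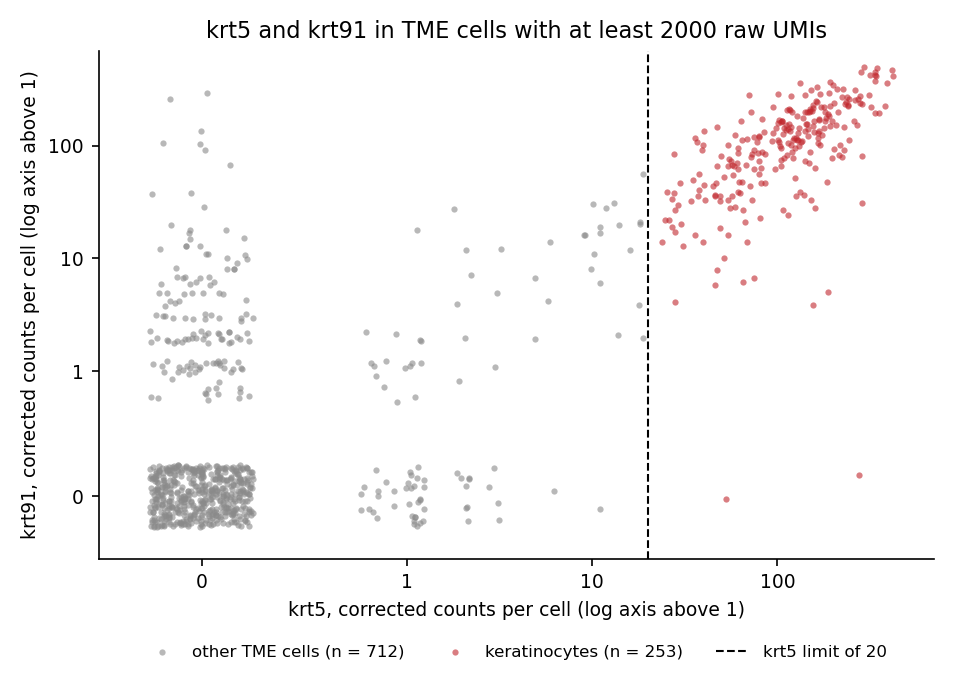
Each point is 1 of the 965 TME cells with at least 2000 raw UMIs, with its krt5 level on the x axis and its krt91 level on the y axis (corrected counts per cell, log axes above 1, points shifted slightly at random). The 253 keratinocytes lie to the right of the dashed limit of 20, between 24 and 419 counts of krt5, and nearly all of them also carry krt91.

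The cells carried keratinocyte markers that the rule did not use. Of 16 keratinocyte markers 14 were in the table, and 11 of the 13 besides *krt5* averaged at least 0.2 corrected counts per keratinocyte. The sum of these 13 ran from 19 to 722 with a median of 247 per keratinocyte, against a median of 1 in the other TME cells (0 to 500) and 3 in the melanoma cells (0 to 320). The 12 macrophage markers summed to a mean of 16.6 per keratinocyte (0 to 134) against 197 in the other TME cells (0 to 1412), with none of them at 0 in all keratinocytes. Most of this sum was *cd74a* and *cd74b*, the invariant chains that accompany MHC class II. Of 7 endothelial markers 6 were at 0 in every keratinocyte, among them *kdrl*, *pecam1* and *cdh5*, and so were 7 of 10 T and NK cell markers. These lists were low in the other TME cells too, with mean sums of 0.711 and 3.74. *kdrl*, *pecam1* and *cdh5* averaged 0.0126, 0.0225 and 0.0126 there, so their zeros say little. The 10 fibroblast markers summed to 1.395 (0 to 47) against 43.3 (0 to 1950), with *pdgfra* and *twist1a* at 0, and the 8 melanophore markers to 0.628 (0 to 23) against 25.03 (0 to 599) in the melanoma cells. At least 3 macrophage markers other than *cd74a* and *cd74b* were found in 2 keratinocytes (0.791%), at least 3 fibroblast markers in 21 (8.30%) and at least 3 melanophore markers other than *pmela* in 3 (1.19%). Whether these are doublets was not tested.

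The comparisons below use the log2 ratio of a gene's share of all corrected counts in the keratinocytes to its share in the other cells. A gene was called past the fold when it was at least 2-fold higher or lower. Of 8371 genes measured against the other TME cells, 1479 were higher in the keratinocytes (17.7%) and 2241 lower (26.8%). Of 12409 genes measured against the melanoma cells, 1605 were higher (12.9%) and 5013 lower (40.4%). The median over all genes was -0.05 against the other TME cells and -0.71 against the melanoma cells, so a typical gene sat below 0 in the second comparison and the ratios are to be read from there. When the ratio was taken between means of per-cell log values instead, far fewer genes passed the same fold (106 higher and 88 lower against the other TME cells, 144 and 80 against the melanoma cells).

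Keratins other than *krt5*, the gene that chose the cells, took up 2.68% of all corrected counts in the keratinocytes, a sum of 212 per cell, against 69.1 in the other TME cells and 48.3 in the melanoma cells. The epidermal keratins were high and the keratins of simple epithelia were low. Of 12 such genes measured against the other TME cells 8 were higher and 3 lower, with a median log2 ratio of 3.85. Against the melanoma cells 9 of 13 were higher and 4 lower, with a median of 5.11.

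*krt5*, which chose the cells, had a lowest value of 24, a median of 115 and a highest value of 419 corrected counts per keratinocyte, and averaged 132 against 0.535 in the other TME cells and 0.0939 in the melanoma cells. *krt91* ran from 0 to 503 with a median of 112 and was found in 251 of the 253 cells (99.2%, exact 95% interval 97.2 to 99.9), against 10.9% (9.72 to 12.2) of the melanoma cells. Its mean of 135 compared with 3.00 and 0.212, a log2 ratio of 5.44 to the other TME cells and 9.30 to the melanoma cells. Whether its counts in melanoma cells are expression or background was not tested. The limit itself keeps the *krt5* values of the 2 TME classes apart, whereas their *krt91* values overlapped.

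*krt4* was a much weaker marker in this tissue. It ran from 0 to 75 with a median of 4 and was found in 71.5% of the keratinocytes (65.6 to 77.0), in 30.1% of the other TME cells and in 20.6% of the melanoma cells. Its mean of 8.91 was close to the 8.63 of the invasive melanoma cells. *krt15*, a basal-layer keratin, had a mean of 42.2 in the keratinocytes, 8.07 in the invasive cells and 1.22 over all melanoma cells. *krt17* (9.86 against 0.324 in the other TME cells and 0.00799 in melanoma) and *krt97* (9.35 against 0.143 and 0.00999) separated the classes more sharply, although *krt97* was found in only 38.7% of the keratinocytes.

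The paired simple-epithelium keratins *krt8* and *krt18b* went the other way. *krt8* averaged 1.57 corrected counts per keratinocyte, 21.7 in the other TME cells and 19.96 in the melanoma cells, a log2 ratio of -3.83 and -3.67. *krt18b* averaged 0.889 against 30.9 and 17.7 (-5.17 and -4.32) and was above 0 in 35.2% of the keratinocytes, 98.0% of the other TME cells and 97.32% of the melanoma cells. *krt18a.1* averaged 0.862, 5.35 and 6.51. The first and second were lower in the keratinocytes than in each of the 5 melanoma states, whereas *krt18a.1* was lower still in the melanocytic cells (0.566).

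**Figure D2:**
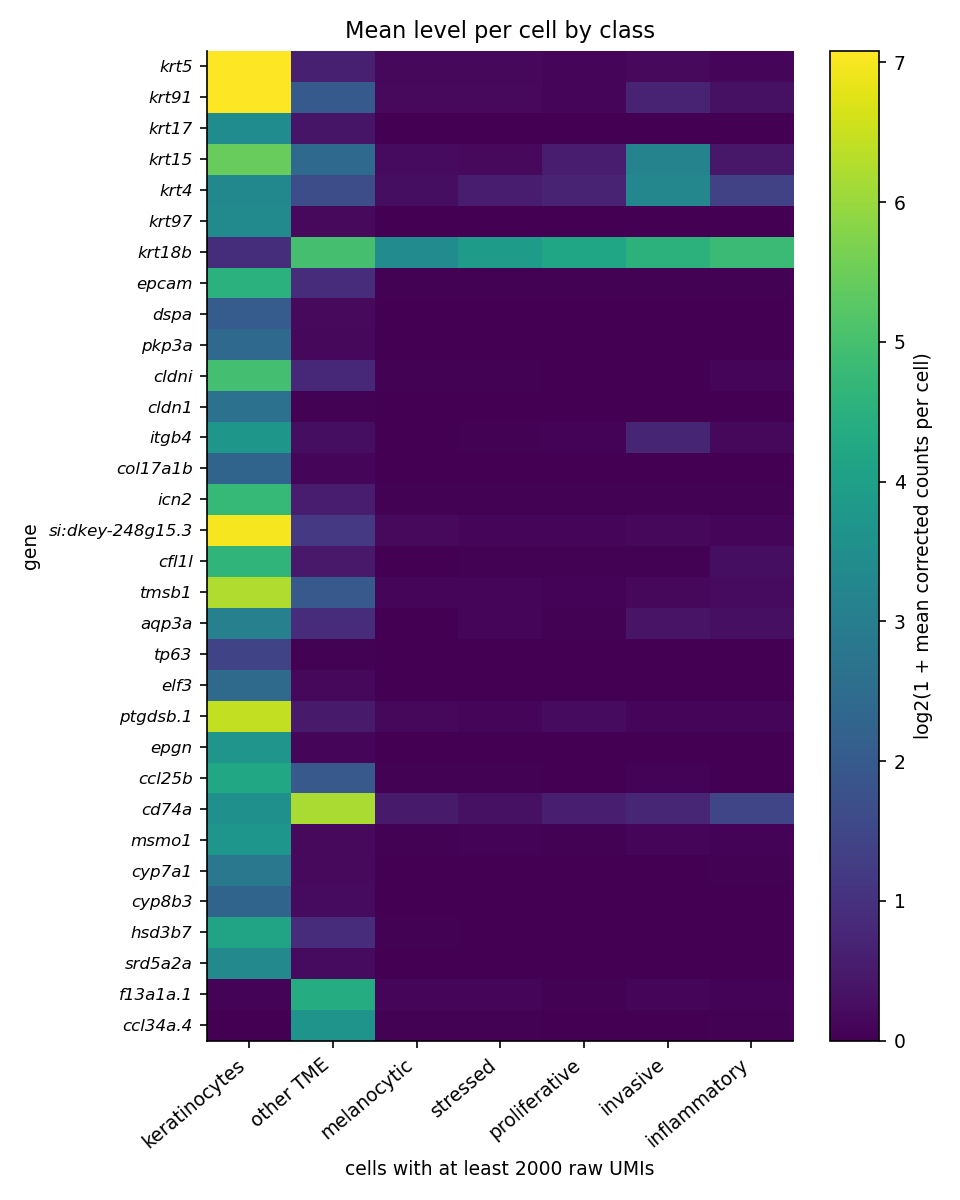
Mean corrected counts per cell of named genes (rows) in the keratinocytes, the other TME cells and the 5 melanoma states (columns), as log2(1 + mean) on the color scale, over cells with at least 2000 raw UMIs. The epidermal genes are bright only in the keratinocyte column, krt4 and krt15 are also seen in the invasive column, and krt18b, cd74a, f13a1a.1 and ccl34a.4 are brighter among the other TME cells.

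Apart from *krt5*, the genes with the highest ratio to the other TME cells fell into 2 kinds. Ahead of *krt5* stood 3 genes that a few cells carried almost alone. *fabp1b.2*, a fatty acid binding protein gene, averaged 10.23 corrected counts but was found in 7.51% of the keratinocytes, and 5 cells held 97.8% of its counts. *wu:fk65c09* was found in 5.53% and 5 cells held 99.3%, and *CT027832.1* in 9.49% and 81.7%. Their ratios of 10.1, 10.0 and 8.05 describe those cells and not keratinocytes at large.

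The others were spread over many cells. *ptgdsb.1*, which encodes a prostaglandin D2 synthase, averaged 85.1 against 0.417 in the other TME cells (log2 ratio 7.62) and was found in 56.9% of the keratinocytes. *si:dkey-248g15.3* averaged 126 (median 113, highest 376) against 1.26 (6.59) and was found in 99.6%, and *apnl* averaged 5.35 against 0.0534 (6.58). *cfl1l*, a cofilin that severs actin filaments, was above 0 in every keratinocyte (median 23, highest 60) and in 7.16% of the other TME cells, with means of 23.8 and 0.412. *tmsb1*, a thymosin that binds actin monomers, averaged 74.3 against 2.92 in the other TME cells and 0.0971 in the melanoma cells. Besides the keratins, *si:dkey-248g15.3*, *ptgdsb.1* and *tmsb1*, the 10 most abundant genes included *icn*, a calcium-binding S100 protein gene (mean 244, against 48.0 and 132), and *CR318588.4*, *CR383676.1*, *CR318588.1* and *si:dkey-151g10.6*, none of which was 2-fold higher than in the other TME cells.

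Cell junction genes were high as a group. All 8 desmosome genes measured against the other TME cells were higher, with a median log2 ratio of 4.50, and against the melanoma cells 8 of 9 were higher (median 6.61). The plakophilin *pkp3a*, a desmosome plaque protein, averaged 4.40 and was found in 92.9% of the keratinocytes, against 0.56% of the melanoma cells. Desmoplakin *dspa* averaged 3.15 against 0.142 in the other TME cells, desmoglein *dsg2.1* 2.27 against 0.0590, plakoglobin *jupa* 3.25 against 0.191, and the desmosomal membrane protein *perp* 8.58 against 0.468. Of 14 adherens and tight junction genes 11 were higher and 2 lower (median 2.06). *epcam* ran from 0 to 133 with a median of 17 and was found in 98.0% of the keratinocytes (95.4 to 99.4) against 2.56% of the melanoma cells, while E-cadherin *cdh1* (4.11) differed little from the melanoma cells (2.90) and much from the other TME cells (0.315). The tight junction scaffold genes *tjp2a* and *tjp3* were found in 34.4% and 50.2% of the keratinocytes and in 0.562% and 1.54% of the other TME cells.

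Claudins, the proteins that seal tight junctions, summed to 85.6 corrected counts per keratinocyte, against 3.70 in the other TME cells and 0.795 in the melanoma cells. Of 14 claudin genes measured against the other TME cells 10 were higher and 3 lower (median 3.09). *cldni* averaged 30.1 (highest 163), *cldnb* 31.5, *cldna* 9.56 and *cldn1* 5.22, against 0.742, 0.830, 0.111 and 0.0309 in the other TME cells. The *cldni* mean of that class was raised by its cells with 5 to 19 counts of *krt5*. They averaged 19.7, against 0.0601 in the cells with *krt5* at 0. *cldn11a* went the other way and was at 0 in all 253 keratinocytes.

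Hemidesmosome genes were high in a share of the cells only. Over the whole list of hemidesmosome and basement membrane genes 5 of 11 were higher and 5 lower against the other TME cells, with a median of -0.72. The integrin *itgb4*, which anchors keratin filaments to the basement membrane, averaged 12.4 against 0.199 (log2 ratio 5.90) and was found in 47.4% of the keratinocytes (41.1 to 53.8). Collagen XVII *col17a1b* averaged 3.88 against 0.0716 (5.69) in 36.4% of the cells. The tetraspanin *cd151* was at 0 in every keratinocyte and averaged 0.225 in the other TME cells.

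Of 15 plakin, annexin and S100 genes 10 were higher and 1 lower against the other TME cells (median 2.54). *icn2*, an S100 protein gene, averaged 25.97 against 0.485 (5.69) and 0.0312 in the melanoma cells, and periplakin *ppl*, a component of the cornified layer in mammals, averaged 1.92 against 0.128. Of 16 epidermal transcription factor genes 14 were higher and 2 lower (median 2.81), and against the melanoma cells 12 of 16 were higher and 3 lower (median 7.61). *tp63* was found in 61.7% of the keratinocytes and 1.83% of the other TME cells, with means of 1.72 and 0.0379, and *elf3*, an epithelial ETS factor, averaged 4.42 against 0.101. *grhl2a*, *gata3* and *znf750*, regulators of epidermal differentiation, averaged 0.648, 0.565 and 0.573. *klf6a* was the lowest of the list, at 3.94 against 19.1. The water channel gene *aqp3a* averaged 7.43 against 0.869 and was found in 90.1% of the keratinocytes. Of 8 ion and water transport genes 3 were higher and 1 lower (median 0.17), beside 17.7% and 26.8% of all genes.

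**Figure D3:**
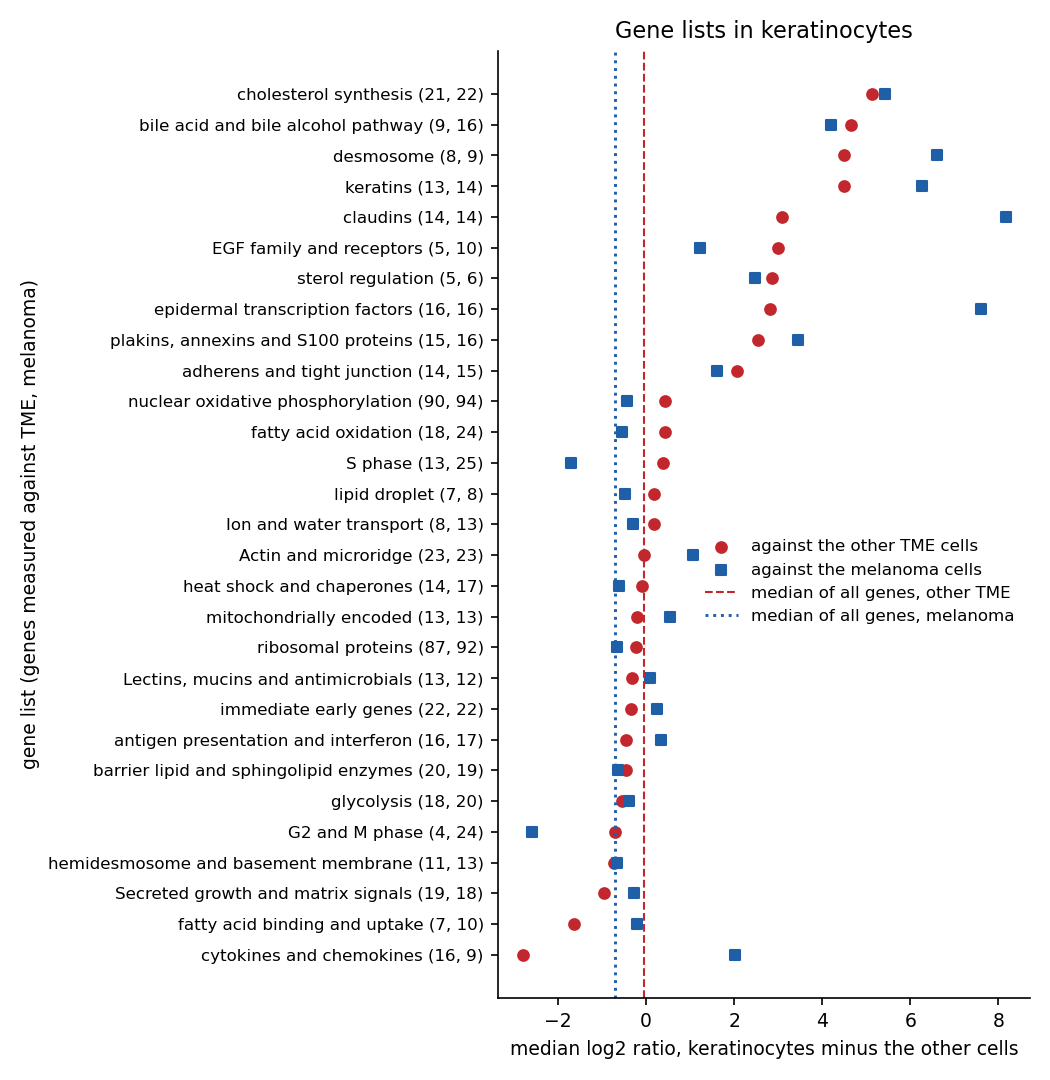
Median log2 ratio of each gene list in the keratinocytes against the other TME cells (red circles) and against the melanoma cells (blue squares), with the number of genes measured in each comparison in parentheses and the median of all genes as dashed and dotted lines. Against the other TME cells cholesterol synthesis, bile acid and bile alcohol, desmosome and keratin (krt5 included) genes lie farthest to the right, and against the melanoma cells claudins and epidermal transcription factors do, whereas most metabolic and housekeeping lists lie near the median of all genes.

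Almost all measured genes of cholesterol synthesis, a list drawn up after values had been seen, had higher means in the keratinocytes. Of 21 genes measured against the other TME cells 19 were higher and 1 was lower (median log2 ratio 5.13), and of 22 against the melanoma cells 20 were higher and 2 lower (median 5.44). They summed to 53.6 corrected counts per keratinocyte and to 1.46 in each of the other classes. The sum was uneven among the keratinocytes, at 217 in a group of 50 cells described below and at 13.9, 12.7 and 13.5 in the other groups. *msmo1*, a sterol methyl oxidase of the late pathway, averaged 12.2 against 0.142 in the other TME cells and 0.0444 in the melanoma cells, and it was found in 52.2% of the keratinocytes (45.8 to 58.5). *fdps* (7.59 against 0.162), *ebp* (5.41 against 0.105), *hmgcs1* (5.34 against 0.166), *hsd17b7* (5.19 against 0.0885) and *cyp51* (2.66 against 0.0337) encode other enzymes along the pathway. *hmgcra*, one of a pair of zebrafish genes for the rate-limiting enzyme, averaged 2.32 against 0.0492, whereas its partner *hmgcrb* averaged 0.0988 against 0.153 (-0.66), and *lbr* 0.0316 against 0.180 (-2.48). Of 5 sterol regulation genes measured against the other TME cells all were higher (median 2.86). The regulator *srebf2* and the low density lipoprotein receptor *ldlra* were above 0 in 37.9% and 18.97% of the keratinocytes, against 5.90% and 0.421% of the other TME cells.

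The bile acid and bile alcohol pathway, known chiefly from liver, was a list of 19 genes also drawn up after values had been seen. Only 9 of them could be measured against the other TME cells, of which 8 were higher and none was lower (median 4.66). Against the melanoma cells 9 of 16 were higher and 2 lower (median 4.19). Among the genes not measured against the other TME cells, *cyp27a1.4*, *amacr* and *acox3* had 0, 3 and 4 corrected counts over all keratinocytes. *cyp7a1*, the rate-limiting enzyme of bile acid synthesis in mammals, averaged 6.16 against 0.125 and 0.0140 and was found in 65.2% of the keratinocytes, 2.25% of the other TME cells and 1.04% of the melanoma cells. *hsd3b7*, which encodes the next enzyme of that route, averaged 16.7 against 0.882 and 0.0208. *cyp8b3* and *cyp8b2*, genes of the sterol 12-alpha-hydroxylase family, averaged 3.87 and 3.34 in the keratinocytes and 0.0016 each in the melanoma cells, and *cyp8b3* was found in 70.4% of the keratinocytes and 0.12% of the melanoma cells. The steroid reductase *srd5a2a* was found in 91.7% with a mean of 9.01, the bile acid transporter subunit *slc51a* in 77.5% with a mean of 5.49, and the sulfotransferase *sult2st1* in 61.3% with a mean of 1.399. *cyp7b1*, of the alternative route, averaged 0.0198, close to the 0.0225 and 0.0192 of the other classes.

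Growth factors and chemokines were represented by a small number of genes. Of 5 genes of the EGF family and its receptors 4 were higher against the other TME cells and none was lower (median 2.99). The ligand *epgn* averaged 11.9 (median 1, highest 199) against 0.0716 and was found in 51.8% of the keratinocytes. The ligands *hbegfa* and *nrg1* averaged 2.60 and 0.992 against 0.316 and 0.0534, and the receptor *egfra* 0.490 against 0.249. Of 16 cytokines and chemokines only 1 was higher against the other TME cells and 13 were lower (median -2.80), while against the melanoma cells 5 of 9 were higher and 1 lower (median 2.03). Of all genes 26.8% were lower against the other TME cells. A gene could also be measured through the counts of those cells alone, as *ccl34b.1* was (779 counts there, 1 in the keratinocytes). The 1 gene higher against the other TME cells was *ccl25b*, a chemokine for lymphocytes, at 17.8 against 2.94 and 0.0288. Its relatives outside the list, *ccl25a* and *cxcl18a.1*, averaged 2.94 and 2.66, against 0.0365 and 0.0309 in the other TME cells.

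MHC class II invariant chain was present in nearly all keratinocytes at an intermediate level. *cd74a* ran up to 69 with a median of 9, was found in 94.1% of the keratinocytes (90.4 to 96.6), 85.3% of the other TME cells and 17.2% of the melanoma cells, and averaged 10.8, 72.0 and 0.717. The complement gene *c1qb*, which macrophages express, averaged 0.0909, 11.3 and 0.0256 in the same classes. The ratio of *cd74a* to *c1qb* was 119 in the keratinocytes, 6.38 in the other TME cells and 28.0 in the melanoma cells. The first ratio is unstable, since it rests on 23 *c1qb* counts in 7 keratinocytes, 91.3% of them in 5 cells. Over the antigen presentation and interferon list none of 16 genes was higher and 4 were lower against the other TME cells (median -0.45). Of all genes 17.7% were higher and 26.8% lower, the latter near the share of this list. The lowest of the list, the MHC class II gene *mhc2dab*, was found in 6.32% of the keratinocytes and 41.3% of the other TME cells.

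Each of the 10 genes lowest against the other TME cells averaged at most 0.0553 corrected counts per keratinocyte. *adh8a* was at 0 in all 253 keratinocytes, which allows up to 1.19% of cells with a count (3 counts over the 253 cells, counting error only) and sets no limit on cells that express it. It averaged 2.08 in the other TME cells, at least 182-fold more than a floor of 3 counts over the keratinocytes. *f13a1a.1*, a clotting factor XIII gene of macrophages, averaged 0.0553 against 19.9, and the chemokine *ccl34a.4* 0.0158 against 11.6. *ifitm1*, *clu* and *vmo1a* averaged 7.23, 5.66 and 4.15 in the other TME cells, and *tppp*, *ccl39.1*, *ccl34b.8* and *cx32.2* between 2.15 and 3.10. Each of these 7 genes had at most 3 corrected counts over all keratinocytes. The progranulin gene *grn1* averaged 0.304 against 53.5.

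Other lists held few genes past the fold, or genes past it in both directions. Of 90 nuclear oxidative phosphorylation genes 6 were higher and 4 lower against the other TME cells (median 0.44), of 18 glycolysis genes 1 and 4 (-0.54), and of 7 lipid droplet genes 2 and 2 (0.19). Fatty acid oxidation (2 and 0 of 18, median 0.42), mitochondrially encoded genes (none of 13, -0.21), immediate early genes (1 and 5 of 22, -0.34) and heat shock and chaperone genes (1 and 3 of 14, -0.08) likewise had few. Actin and microridge genes (10 and 8 of 23, -0.05), lectins, mucins and antimicrobials (5 and 5 of 13, -0.32), secreted growth and matrix signals (4 and 9 of 19, -0.94) and fatty acid binding and uptake (3 and 4 of 7, -1.63) held genes in both directions. Of 87 genes in the ribosomal list 1 was higher and none was lower (-0.23), and that 1, *rps6ka3a*, encodes a kinase and not a ribosomal protein. Barrier lipid and sphingolipid enzymes split into 6 higher and 8 lower of 20 (-0.46), with the desaturase *degs2* in 15.02% of the keratinocytes and 0.702% of the other TME cells. All 25 S phase genes and all 24 G2 and M phase genes measured against the melanoma cells were lower in the keratinocytes, as were 40.4% of all genes. Their medians were -1.71 and -2.58 beside the -0.71 of all genes. With 2502 melanoma cells beside 253 keratinocytes, a gene could be measured through its melanoma counts alone. The melanoma cells also include the proliferative state, where *dut* averaged 4.17, against 0.0840 in the stressed cells and 0.0435 in the keratinocytes. Against the other TME cells, where 13 and 4 such genes could be measured, 3 and 0 were higher and 2 and 1 lower.

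The keratinocytes were not uniform. Clustering on 500 variable genes without *krt5*, cut at 4, gave groups of 108, 89, 50 and 6 cells. The clusters were built from these genes, so the values that follow describe them and are not tests. *krt5* and *krt91* themselves differed little between the 3 larger groups, with *krt5* means of 134, 141 and 119 and *krt91* means of 146, 124 and 130.

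The second group, 89 cells, is called basal keratinocyte-like. All 6 basal markers detected in it were at least 2-fold higher than in the other keratinocytes, and 2 of them, *itga6b* and *itgb4*, were among its 10 leading genes. The integrin *itga6b*, the partner of *itgb4* in hemidesmosomes, was found in all 89 cells with a mean of 18.1, and in 12.8% of the other keratinocytes. *itgb4* averaged 31.8 against 1.87 and *col17a1b* 9.82 against 0.659. *tp63* averaged 2.97, against 1.25 in the first group and 0.68 in the third group. The claudin *cldn1* (13.6 against 0.683), *ptgdsb.1* (218 against 12.8) and *cldni* (65.2, against 15.1 in the first group and 3.36 in the third group) were also highest here, and *epgn* averaged 29.3 against 3.17 and 1.22. Of the superficial markers none was 2-fold higher, and *icn2* was at 1.43. Of 10 fibroblast markers 5 were detected in it, and all 5 were at least 2-fold higher (*col1a1a*, *col1a1b*, *col1a2*, *col5a1* and *col5a2a*). Among the 10 leading genes *col1a2* ranked 6, ahead of *itgb4* at 9. The whole fibroblast list summed to 3.57 against 0.231 in the first group and 0.2 in the third group. The median depth of this group, 7031 raw UMIs, was lower than the 11380.5 of the first, and the part of either in the result was not tested.

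The third group, 50 cells, was led by sterol genes. *nsdhl*, *hsd17b7*, *ebp* and *msmo1* were all among its 10 leading genes, together with *cyb5r2*. The 23 cholesterol genes summed to 217 corrected counts per cell here, against 13.9, 12.7 and 13.5 in the other groups. *msmo1* averaged 51.3 against 2.51 in the other keratinocytes, and *hsd17b7*, found in all 50 cells, averaged 23.7 against 0.645. *krt15* was nearly lacking at 0.02, against 39.4 and 71.0 in the first and second group, while *krt97* reached 28.6 and *icn2* 60.8. Of 15 superficial markers 13 were detected in this group and 8 were at least 2-fold higher. Among these were the envoplakin genes *evpla* and *evplb* and *ppl*, and none of the basal markers was 2-fold higher. No marker of a named class led the group, so it was left without a name. Its median depth was 14908.5 raw UMIs, and it held the deepest cell of the library, without which its size and that of the other groups stayed within 1.5 times.

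The first and largest group, 108 cells, stayed unnamed. Its 10 leading genes held the goblet cell genes *agr2*, *muc5.1* and *muc5.2*, but only 7 of its cells had *muc5.1*, 8 had *muc5.2* and 19 had *agr2*. More widely spread were the chemokine *cxcl18b* (65.7% of its cells, 21.4% of the other keratinocytes), the acute phase gene *saa* (59.3% and 28.3%), the Hairy-related gene *her9* (56.5% and 23.4%) and *gstp1*, a glutathione transferase (mean 19.1 against 3.27). *krt4* and *krt17*, both superficial markers, averaged 12.6 and 15.5 here, against 3.63 and 3.70 in the basal keratinocyte-like group. Both mucins were found together in 5 of the 253 keratinocytes.

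The fourth group held 6 cells and joined the third group when the tree was cut at 3, which made a group of 56. All 6 cells expressed the transporter *abcb5* (mean 33.2 against 0.0567 in the other keratinocytes), *zgc:100868* and *CR926130.2*. Of 15 superficial markers 13 were detected in these cells and 12 were at least 2-fold higher. *krt4* was at 43.7, *icn2* at 74.0 and *cldne* at 57.3 against 2.68 in the third group. *cd74a* averaged 47.7 against 11.02, 8.92 and 9.36 in the other groups. The median *krt5* value, 48.5, was below the 102 to 129 of the other groups. With so few cells no share is given.

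**Figure D4:**
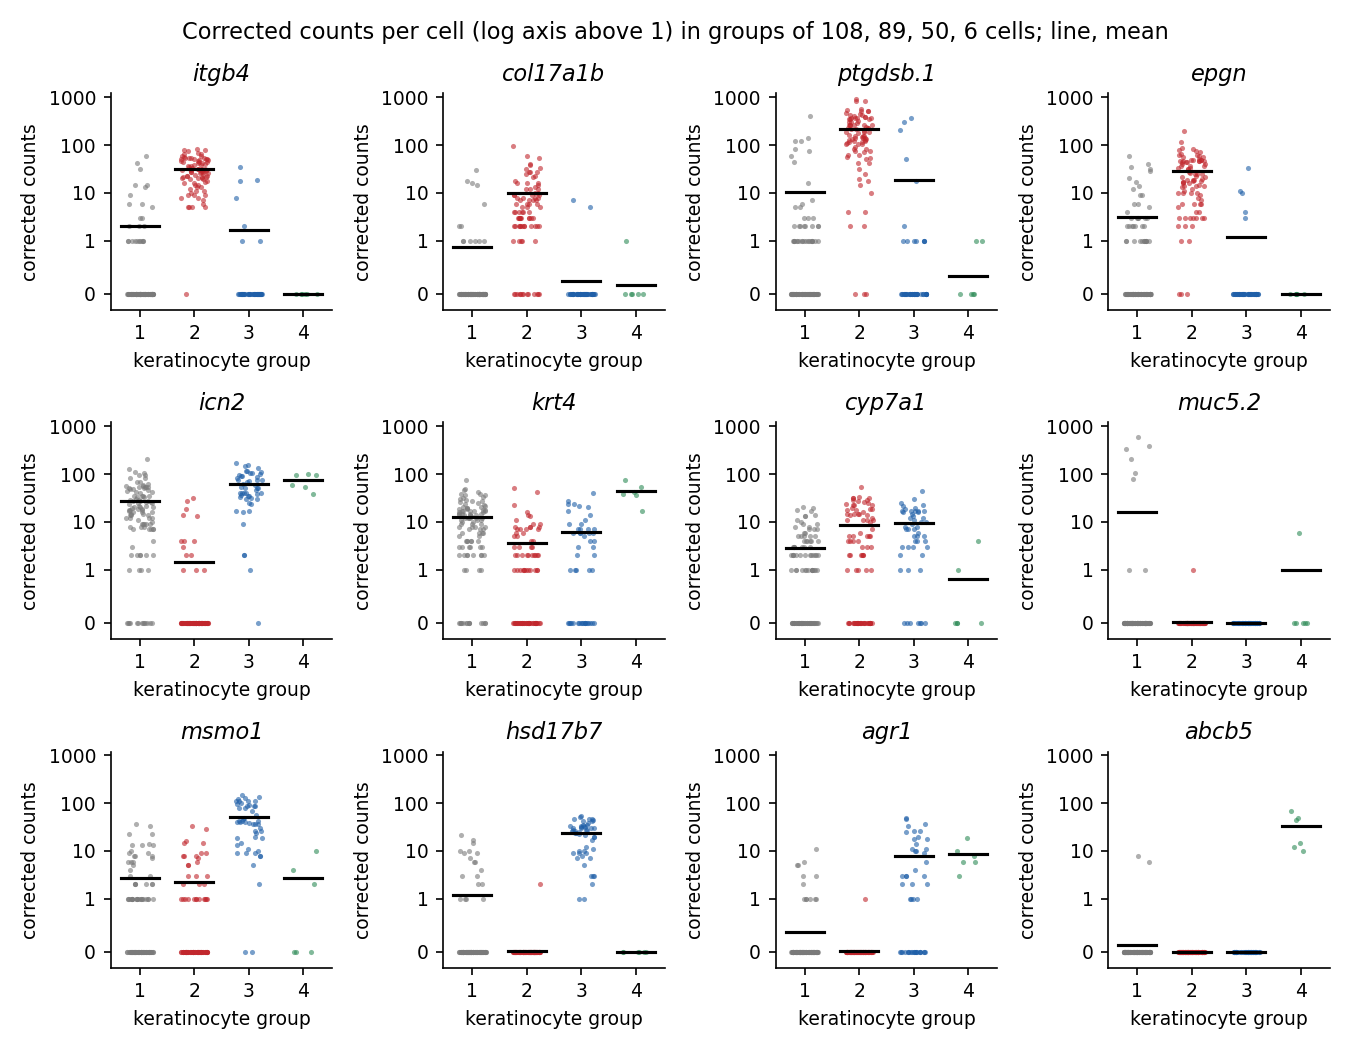
Each point is 1 keratinocyte, placed by its group (x axis) and its corrected counts of the named gene (y axis, log axis above 1), with a line at the mean of each group of 108, 89, 50 and 6 cells. Hemidesmosome genes, ptgdsb.1 and epgn are highest in group 2, msmo1 and hsd17b7 in group 3 and abcb5 in group 4, whereas muc5.2 comes from a few cells of group 1.

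Across the 253 cells, pairs of genes followed the same division. These correlations describe cells of 1 library that share its depth range, and carry no test. Spearman's rho was 0.94 between *itgb4* and *itga6b*, 0.77 between *itgb4* and *col17a1b*, and -0.68 between *itgb4* and *icn2*. It was 0.85 between *msmo1* and *fdps* but -0.26 between *itgb4* and *msmo1*, and -0.76 between *icn2* and *cldni*. *krt5* followed *krt91* (0.69) and hardly *krt4* (0.07). Depth moved with some of these genes, since *krt5* had a rho of 0.49 and *msmo1* of 0.30 with raw UMIs, against -0.11 for *itgb4*. The bile acid genes were not limited to 1 group, with *cyp7a1* at 2.91, 8.52 and 9.64 and *srd5a2a* at 9.17, 8.53 and 10.1 in the first, the second and the third group.

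The sorted tdTomato+ cells allowed the keratinocyte genes to be followed in libraries that the rule had not used. The question of that experiment was what a guide against *dgat1a*, an enzyme of triglyceride synthesis, does to melanoma. The targeted gene was lower in each sgDGAT1a library (216, 231 and 240 normalized counts) than in each sgNT library (799, 747 and 405), with a log2 difference of -1.44 (SE 0.32, limma, adjusted p = 0.0265, n = 3 libraries a group). Libraries 1 and 2 of each group resembled each other (r = 0.962 for sgNT and 0.963 for sgDGAT1a over all genes, against 0.887 to 0.903 between either and library 3), and no label says whether they come from separate fish. Between the groups, sgNT 3 had r = 0.885, 0.874 and 0.866 with sgDGAT1a 1, 2 and 3, near its 0.887 and 0.888 with sgNT 1 and 2. The latter 2 had 0.799 to 0.821 with the sgDGAT1a libraries. Values are log2 differences of normalized counts with 1 added, and a gene was called when its adjusted p was below 0.05 and its difference beyond 1.

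Keratinocyte genes were present in these sorted cells and were higher with the *dgat1a* guide. *krt5* measured 3577, 4702 and 35119 normalized counts in sgNT 1, 2 and 3, and 100376, 62403 and 70869 in sgDGAT1a 1, 2 and 3. The groups did not overlap, and sgNT 3 lay between the other sgNT libraries and the sgDGAT1a libraries. The log2 difference was 3.18 (SE 0.77, limma, adjusted p = 0.0342, n = 3). In such bulk samples more cells of a type and more RNA per cell cannot be told apart.

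*krt91* measured 6303, 7378 and 33698 in sgNT and 91033, 60462 and 107330 in sgDGAT1a (2.85, SE 0.61, limma, adjusted p = 0.0244, n = 3). *krt4* measured 1952, 1873 and 9820 against 30111, 26577 and 31283 (3.15, SE 0.58, limma, adjusted p = 0.0170, n = 3). *epcam* measured 610, 617 and 1999 against 7148, 6067 and 13282 (3.19, SE 0.50, limma, adjusted p = 0.0107, n = 3). All of them repeated the pattern of *krt5*, with sgNT 3 above its partners and below every sgDGAT1a library. In the single-cell library *krt4* was also found in 20.6% of the melanoma cells, with a mean in the invasive cells close to that of the keratinocytes. The part of melanoma cells in its bulk values was not tested. Among the simple-epithelium keratins, *krt18a.1* was called higher by 1.88 (limma, adjusted p = 0.00753, n = 3). *krt8* measured 26924, 27382 and 22612 against 43311, 39192 and 66790, groups that did not overlap, with a difference of 0.92 that was not called (limma, adjusted p = 0.0726, n = 3). *krt18b* differed by 0.16 (limma, adjusted p = 0.779, n = 3).

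Of the 25 genes with the highest ratio to the other TME cells, 21 were matched by symbol in the bulk table, the others being *CT027832.1*, *cldn1*, *si:dkey-184p9.7* and *LO017965.1*. All 21 had a positive difference (median 2.77), 16 were called higher and none lower, where 8.70% of all 16969 genes were called higher and 3.31% lower. For 17 of the 21 every sgDGAT1a library lay above every sgNT library, as it did for 21.1% of all genes. A wider set of 83 genes, chosen after seeing the data for a log2 ratio of at least 6 to the melanoma cells, gave 57 called higher of 73 matched, none lower, with a median of 3.08 beside 0.02 for all genes. These 73 genes made up 0.419, 0.438 and 1.24% of the normalized counts in sgNT and 3.09, 2.43 and 3.04% in sgDGAT1a.

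The number of calls changed with the libraries, among the 21 genes and among all genes. Without sgNT 1 limma called 6 of the 21 higher beside 354 of all genes, without sgNT 2 it called 6 beside 390, and without sgNT 3 it called 18 beside 2854. Without sgDGAT1a 1 it called 3 beside 188, without sgDGAT1a 2 it called 2 beside 80, and without sgDGAT1a 3 it called 9 beside 1070, where all 6 libraries gave 16 beside 1477. When libraries 1 and 2 of each group were averaged and counted as 1 sample, limma called none of the 21 and none of the 16969 genes. At an unadjusted p below 0.05 there were 18 of the 21 and 2515 of all genes, and *krt5* differed by 2.64 (limma, adjusted p = 0.259, n = 2 a group).

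**Figure D5:**
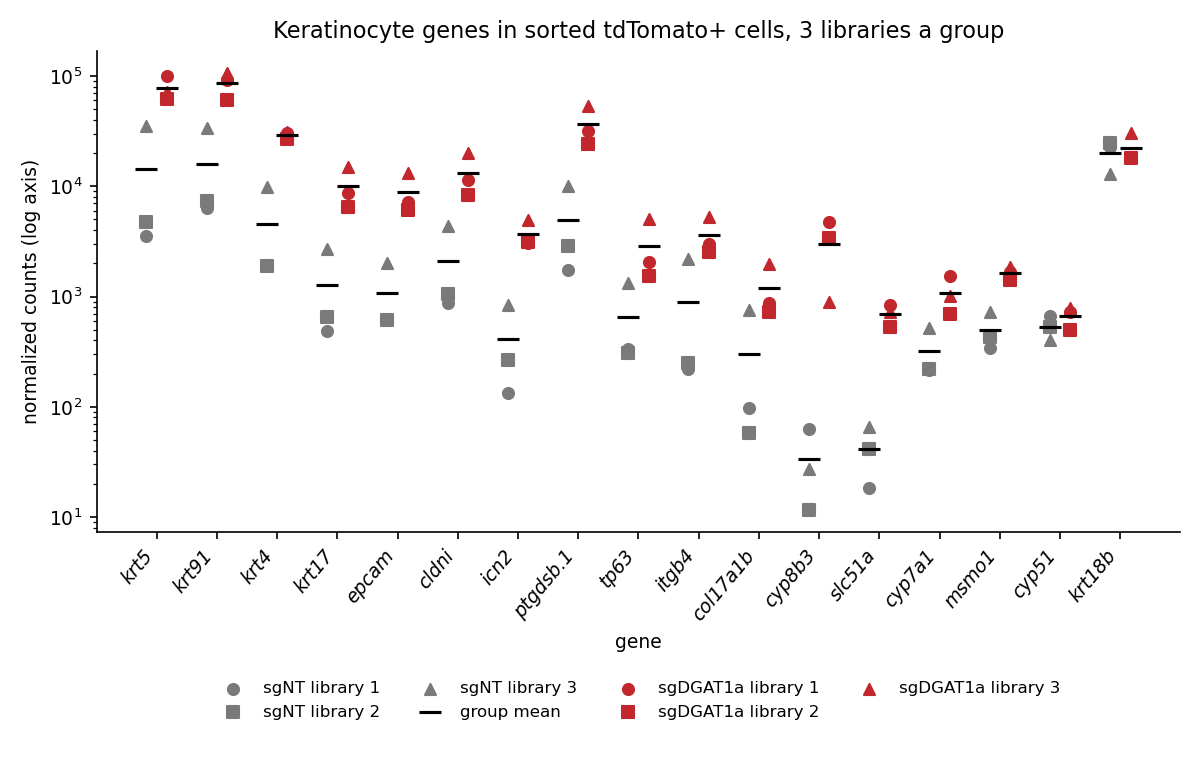
Normalized counts (log axis) of 17 genes in the sorted tdTomato+ cells, with sgNT libraries in grey and sgDGAT1a libraries in red (circle, square and triangle for libraries 1, 2 and 3, black dash for the group mean). For krt5, krt91, krt4 and most other keratinocyte genes all sgDGAT1a libraries lie above all sgNT libraries and sgNT 3 is the highest of its group, whereas cyp51 and krt18b overlap.

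By layer, 12 of 14 superficial markers were called higher (median 3.27) and 2 of 11 basal markers (median 2.29), beside 8.70% of all genes. All 14 superficial and 9 of the 11 basal markers had a positive difference. The superficial list includes *icn*, which was found in 99.8% of the melanoma cells of the single-cell library. At an unadjusted p below 0.05 (limma) there were 14 superficial and 8 basal markers, beside 5421 of all 16969 genes. *icn2* measured 133, 268 and 830 against 3078, 3103 and 4903 (3.54, limma, adjusted p = 0.0126, n = 3) and *cldne* 94.1, 140 and 1055 against 3737, 3681 and 4413 (4.02, limma, adjusted p = 0.0189, n = 3). Of the basal genes *krt15* was called at 372, 583 and 1643 against 5445, 4838 and 6957 (3.00, limma, adjusted p = 0.0122, n = 3). The other called was *tp63*, at 335, 308 and 1325 against 2061, 1551 and 5018 (2.29, limma, adjusted p = 0.0476, n = 3). *itgb4* measured 220, 251 and 2178 against 2992, 2537 and 5213, a difference of 2.78 that was not called (limma, adjusted p = 0.0547, n = 3). *col17a1b* and *itga6b* likewise differed by 2.73 and 2.51 without a call (limma, adjusted p = 0.0726 and 0.0714, n = 3). The difference between superficial and basal genes was not itself tested. Of 9 desmosome genes 4 were called higher and none lower.

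Some secreted and junction genes were called as well, and others were not. *ptgdsb.1* measured 1722, 2893 and 10118 against 31863, 23924 and 53584 (3.22, limma, adjusted p = 0.0182, n = 3), *cldnb* 995, 1167 and 5641 against 21433, 17750 and 33590 (3.64, limma, adjusted p = 0.0131, n = 3), and *epgn* 240, 314 and 273 against 1747, 1382 and 1547 (2.50, limma, adjusted p = 0.00531, n = 3). In *epgn* sgNT 3 lay among its partners. Desmoplakin *dspa* and E-cadherin *cdh1* differed by 1.63 and 0.49 without a call (limma, adjusted p = 0.0848 and 0.279, n = 3).

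Of 23 cholesterol genes 3 were called higher and 1 lower, shares near the 8.70% and 3.31% of all genes, with a median of 0.43. *msmo1* measured 343, 429 and 717 against 1658, 1418 and 1855 (1.79, limma, adjusted p = 0.0131, n = 3) and *hsd17b7* 194, 170 and 1321 against 2895, 2346 and 3872 (3.08, limma, adjusted p = 0.0298, n = 3), while *fdps* and *cyp51* differed by 0.03 and 0.33 (limma, adjusted p = 0.953 and 0.475, n = 3). Of 19 bile acid and bile alcohol genes 9 were called higher and none lower (median 1.82). *cyp8b3* measured 62.4, 11.7 and 27.5 in sgNT and 4790, 3376 and 892 in sgDGAT1a, a difference of 6.42 (SE 0.74, limma, adjusted p = 0.00644, n = 3). *cyp8b2* and *slc51a* differed by 5.81 and 4.17 (limma, adjusted p = 0.00531 and 0.00644, n = 3) and *cyp7a1* by 1.82 (limma, adjusted p = 0.0314, n = 3). In *cyp8b3* and *cyp8b2* sgNT 3 was not raised and sgDGAT1a 3 was the lowest of its group, unlike in the keratins.

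Markers of other cell types moved in the same libraries, where 8.70% of all genes were called higher. Of 15 keratinocyte markers 13 were called higher, and the list took 0.0934, 0.103 and 0.546% of the normalized counts in sgNT and 1.43, 0.981 and 1.32% in sgDGAT1a. Of 10 fibroblast markers 8 were called higher (0.175, 0.165 and 0.228% against 1.05, 1.01 and 0.654%), with *col1a1a* at 7571, 7542 and 8337 against 48730, 46194 and 34616. All 7 skeletal muscle markers were called higher (0.00221, 0.00271 and 0.0150% against 0.195, 0.223 and 0.0615%), and so were 4 of 7 endothelial and 2 of 5 goblet cell markers. Among blood cell markers, 3 of 6 for neutrophils and 2 of 5 for erythrocytes were called higher. For T and NK cells 2 of 11 were called higher and 2 lower. Of 12 macrophage markers 1 was called (median 0.13), and of 8 melanophore markers 1, shares near that of all genes. The melanophore marker was *tyrp1b*, which measured 9882, 10323 and 5949 against 30970, 31432 and 272075. The part of these other cell types, or of the sort, in the keratinocyte values was not tested.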

How the data were processed

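The single-cell library pooled 6 fish, and the bulk libraries were 3 of sgNT and 3 of sgDGAT1a sorted cells. For the single cells, the authors aligned reads with Cell Ranger 6.0.2 (GRCz11 in the processing notes), kept cells of at least 200 genes with a mitochondrial share of at most 30%, and applied SCTransform (Seurat 4.0.2). The deposited values are depth-corrected counts, treated here as a score and not as molecules. The deposited annotation gives the class, the raw UMI count, the genes detected and the mitochondrial percent of each cell, and 1 further value column was not used. It gives no sex tag, so the sexes were not compared. The authors removed doublets by flow cytometry, and no doublet caller was run here. For the bulk libraries, the authors estimated counts with Salmon 1.4.0 after FASTQC 0.11.9 and Trimmomatic, and divided them by DESeq2 1.30.1 factors. The deposited values are a signal with decimals, so the depth of each library is unknown, and 280 repeated lines of 20682 were dropped.

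Here, corrected counts were summed over cells, 0.5 was added to each sum, and shares were compared for genes whose sum over the compared cells reached 50. Sums of raw UMIs had been allowed for in the design but are not what the matrix holds. The 95% intervals of shares of cells are exact binomial (Clopper-Pearson) and leave out all error but that of counting. Keratinocytes were clustered (Ward) on 10 principal components of 500 genes. Bulk values were compared as log2(value + 1) with limma 3.58.1 (trended variance) over the 16969 genes averaging at least 10, with Benjamini-Hochberg adjustment. The p-values measure the spread between libraries, which may be technical. Procedures were tested on simulated data, in R 4.3.3 and Python 3.11.15 (numpy 2.4.6, scipy 1.17.1, pandas 2.3.3, matplotlib 3.10.9).

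Genes were named by a rule: *krt5*, *krt91* and *krt4*, the 25 highest and 10 lowest ratios to the other TME cells, the 10 highest ratios to the melanoma cells and the 10 most abundant genes (mean of at least 2 corrected counts), the 3 highest and the lowest gene of each list, and the 8 leading genes of each group. The text gives those of them that its results turn on, and the others are not reported here. Genes named beside the rule, and the cholesterol, sterol regulation and bile acid lists, were picked once their values had been seen. The members and all lists were chosen with earlier results of these data known. Alternatives varied the *krt5*, depth and mitochondrial limits, the classes compared, pseudocounts, gene minimums, the summary over cells, the clustering, the bulk normalization and the libraries.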

Additional observations from a re-analysis of the deposited data

How the results depend on the processing

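None of 645 values of single genes under the alternatives changed direction. Of these, 506 stayed within the limits set, 100 moved, 37 lost their call and 2 gained one. The lack of reversals says little for the single-cell ratios of *krt5*, which chose the cells. It also says little for genes such as *fabp1b.2*, *ptgdsb.1*, *epgn* and *msmo1*, named for their high ratios in the same cells. Counts of genes past the fold depended most on how genes were admitted and summarised. Without a minimum per gene, 4538 genes were higher and 4995 lower against the other TME cells and 4299 higher against the melanoma cells. With at least 200 corrected counts, these were 483 and 992 against the other TME cells and 729 higher and 3258 lower against the melanoma cells. The mean of per-cell log values gave 106 and 88, and 144 and 80. A pseudocount of 5 left 3131 genes lower than in melanoma. A limit of 20 on *krt4* gave 57 cells, and 3 groups in place of 4 turned the fourth into 56 cells. Leaving out the deepest cell, an alternative chosen after seeing the data, changed none of these counts by over 1.5 times. The log2 ratio of *krt5* to the other TME cells, 7.90 with the limits used, ran from 6.48 with a limit of 40 to 9.77 against TME cells with *krt5* under 5.

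In the bulk libraries, leaving out 1 library gave 2 to 18 of the 21 keratinocyte genes and 12 to 66 of the 73 enriched over melanoma, and averaging libraries 1 and 2 gave 0 of each. With the replicate number as a block, 12 of the 21 and 48 of the 73 were called, and *krt5* and *krt91* had adjusted p of 0.0708 and 0.05004, both above the threshold of 0.05. Deviations of libraries with the same number correlated at -0.07, -0.05 and -0.14 over all genes. These values cannot show whether such libraries share a batch, and no label says so. With quantile normalization *krt5* had an adjusted p of 0.0532. Over all limma alternatives its adjusted p ran from 0.000178 to 0.259, and that of *krt91* from 0.000349 to 0.222. The causes were not tested. Depth limits the single-cell shares: a gene at 0 in all keratinocytes may have a count in up to 1.19% of cells, and may be expressed in more.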
